A study of Arabidopsis thaliana with 24 samples.

Results

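The 10 genes described here encode WRKY transcription factors of stress and of phosphate (Pi) supply in Arabidopsis roots: WRKY6 (AT1G62300), WRKY18 (AT4G31800), WRKY22 (AT4G01250), WRKY33 (AT2G38470), WRKY40 (AT1G80840), WRKY42 (AT4G04450), WRKY45 (AT3G01970), WRKY46 (AT2G46400), WRKY53 (AT4G23810) and WRKY75 (AT5G13080). They were set as a list of gene identifiers, with earlier results of these data known, and all 10 were among the 20450 genes of the table. A further 46 genes with a WRKY symbol were in the table. The libraries were made from root tips (sections of about 10 mm, pooled over many seedlings) of wild-type Col-0 (CS70000) and of stop1, a single T-DNA insertion line (SALK_114108) in the same ecotype. Seedlings raised for 5 days on agar with Pi were moved for 16 h to 1 of 6 liquid media, with 2 libraries for each genotype and medium and 24 in all. +Pi_pH6, with Pi at 1 mM and a pH of 6, was the control. -Pi_pH6 lacked Pi, +Pi_pH5 had the same Pi at pH 5, and -Pi_pH5 lacked Pi at pH 5. +Al was the last of these with AlCl3 (100 µM in the labels, while the methods of the study give a higher dose). ++Fe was also at pH 5, with FeSO4 and Pi at 0.1 mM each. All 6 held sucrose. STOP1 is a zinc finger transcription factor that activates genes of tolerance to acidity and aluminum, among them the malate channel gene ALMT1.

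WRKY proteins bind the W-box, a short DNA element with the core TTGAC, and many WRKY genes carry W-boxes of their own, so that the family acts on itself. In roots, WRKY45 activates the Pi transporter gene PHT1;1, WRKY75 promotes responses to Pi starvation, and WRKY6 and WRKY42 repress PHO1, which loads Pi into the xylem. WRKY46 represses ALMT1. WRKY33, a substrate of the kinases MPK3 and MPK6, drives camalexin synthesis, while WRKY18, WRKY40, WRKY53 and WRKY22 act in immune signalling and senescence.

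The 250 bases before the annotated start of each gene were read from the TAIR10.1 genome and its RefSeq annotation, and W-boxes were searched there as TTGACC or TTGACT on both strands, where neighbouring matches may share an end base. At least 1 was present before 4 of the 10 genes (2 each for WRKY33, WRKY45 and WRKY53, 1 for WRKY75), against 28.6% of the 20413 promoters of the table's genes that could be read, of which 6% held 2 or more. In a window of 1000 bases, 9 of the 10 genes had a W-box (WRKY42 had none), against 67.6% of all promoters. The sequences of WRKY45 and WRKY75 (the 2 genes with the largest rise in ++Fe) and of WRKY33 and WRKY6 (the 2 that were highest in stop1 in +Al) are given below 5′ to 3′ on the strand of the gene, with each W-box in capitals. A box on the opposite strand reads as its complement, GGTCAA or AGTCAA.
WRKY45: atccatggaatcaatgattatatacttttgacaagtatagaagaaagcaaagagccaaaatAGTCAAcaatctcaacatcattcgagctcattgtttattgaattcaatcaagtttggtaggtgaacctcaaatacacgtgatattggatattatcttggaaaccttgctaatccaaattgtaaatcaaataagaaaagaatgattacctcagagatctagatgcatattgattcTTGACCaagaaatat
WRKY75: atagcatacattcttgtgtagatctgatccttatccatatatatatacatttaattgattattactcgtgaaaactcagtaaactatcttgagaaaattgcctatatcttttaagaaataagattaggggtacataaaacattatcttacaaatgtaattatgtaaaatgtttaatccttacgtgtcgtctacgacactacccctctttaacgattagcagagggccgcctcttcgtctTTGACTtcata
WRKY33: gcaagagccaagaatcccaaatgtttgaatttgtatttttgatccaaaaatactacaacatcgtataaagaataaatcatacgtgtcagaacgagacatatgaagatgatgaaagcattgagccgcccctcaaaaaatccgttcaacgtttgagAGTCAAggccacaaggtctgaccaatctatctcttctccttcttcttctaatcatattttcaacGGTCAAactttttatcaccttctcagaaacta
WRKY6: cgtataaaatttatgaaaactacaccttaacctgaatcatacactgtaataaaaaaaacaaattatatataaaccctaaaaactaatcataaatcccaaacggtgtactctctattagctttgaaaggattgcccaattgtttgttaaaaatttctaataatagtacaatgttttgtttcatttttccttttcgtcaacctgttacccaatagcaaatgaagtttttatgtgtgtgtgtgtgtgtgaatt
In TAIR10.1 these windows are chr3:327413-327662 (reverse strand) for WRKY45, chr5:4151202-4151451 (reverse strand) for WRKY75, chr2:16107985-16108234 (forward strand) for WRKY33 and chr1:23019495-23019744 (reverse strand) for WRKY6. The box of WRKY75 lies 11 bases and the nearer box of WRKY45 15 bases before the start, while those of WRKY33 lie 32 and 96 bases before it. The window of WRKY6 holds no box in these letters.

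Reads on genes ran from 17027929 to 30516150 per library, so that 1 read was worth 0.0326 to 0.0572 CPM (reads scaled to the library size). STOP1 itself was lower in stop1 in every medium, with differences of -1.38 to -2.18 in log2(CPM + 1), all called. All 7 root markers were detected in every library, with a summed level of 168.9 to 251.7 CPM. The 4 shoot markers in the table (of 7 listed; GL1, SPCH and FAMA were not in it) summed to 8.52 to 41.1 CPM in 19 libraries, and to more than 100 CPM in the other 5. These were WT +Pi_pH6 replicate 1 (116.9 CPM), WT +Pi_pH5 replicate 2 (755.7 CPM), WT +Al replicate 1 (246.7 CPM), stop1 +Pi_pH6 replicate 1 (250.9 CPM) and stop1 +Pi_pH5 replicate 1 (158.4 CPM). Where a call given here for the 10 genes or their targets changes without these 5 libraries, the value without them is given beside it. In addition, the gene lists that the study supplies for stop1 in +Pi_pH6 and in +Pi_pH5 match the libraries of the other label, so calls of stop1 against its own control are also given with these 2 labels exchanged where that changes them. In bulk root tips, fewer cells of a type and less RNA per cell cannot be told apart. The libraries were strand-specific, but the strand setting of the counting is not given in the sources used here, and WRKY33, WRKY40 and WRKY53 overlap a gene on the opposite strand.

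Counted reads ranged from 15 (WRKY46) to 4900 (WRKY33) per gene and library. Per kilobase of exon, the mean level over all libraries was 31.6 CPM for WRKY33 and 29.3 CPM for WRKY6, then 11.6 CPM for WRKY75, 10.2 CPM for WRKY45, 8.04 CPM for WRKY18, 5.86 CPM for WRKY40, 3.48 CPM for WRKY53, 2.22 CPM for WRKY22, 1.87 CPM for WRKY42 and 1.29 CPM for WRKY46. WRKY33 and WRKY6 were thus the most abundant of the 10 in root tips, and WRKY46 the least. WRKY45 had the widest range, with a mean in its highest condition (WT ++Fe) 16.6 times that in its lowest (WT -Pi_pH6). The same ratio was 7.36 for WRKY33, 5.92 for WRKY75, 4.43 for WRKY46 and 4.09 for WRKY42, and it was smallest for WRKY18 (1.90).

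**Figure D1:**
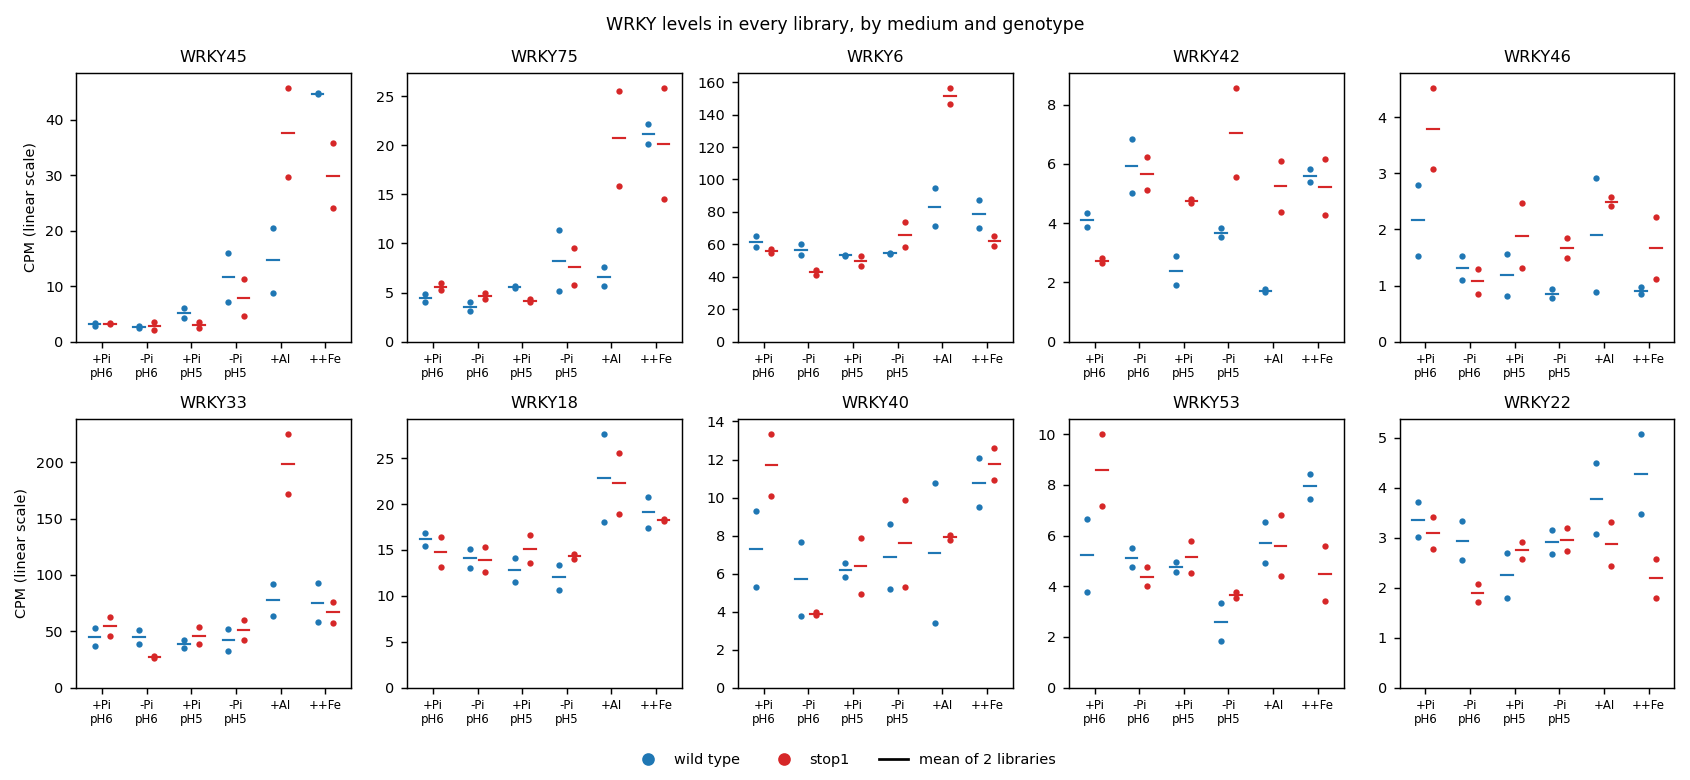
Level of each of the 10 WRKY genes (CPM, linear axis from 0, own scale for each gene) in the 6 media for wild type (blue) and stop1 (red); points are libraries and short lines are means of 2 libraries. WRKY45 and WRKY75 are high in ++Fe in both genotypes and in +Al in stop1, WRKY6 and WRKY33 stand highest in stop1 in +Al (WRKY33 at 172.1 and 224.9 CPM), and WRKY42 is lowest in wild type in +Al.

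Changes were tested as differences in log2(CPM + 1) with limma over all 20450 genes, and a gene was called at a Benjamini-Hochberg adjusted p under 0.05. The differences below are on this scale, with their standard errors. Over 25 comparisons, 39 results of the 10 genes were called, and WRKY22, WRKY40 and WRKY46 had none. In none of the called comparisons between 2 conditions did the libraries of the 2 conditions overlap. This adds no support to the calls, as results that were not called were often free of overlap too, such as WRKY6 in WT +Al against +Pi_pH6. The share of all genes without overlap is not given.

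Without added Al or Fe, limma called few of these genes against the control, as it did of all genes. In wild type, 0 of 10 were called in -Pi_pH6, in +Pi_pH5 and in -Pi_pH5 against +Pi_pH6, with backgrounds of 0.166%, 0.0293% and 1.44% of all genes. Those with an unadjusted p under 0.05 numbered 0, 1 and 4. The backgrounds here and below are shares at an adjusted p under 0.05. No share of all genes at an unadjusted p under 0.05 is given, so the unadjusted counts cannot be set against these backgrounds. In stop1, 0 were called in -Pi_pH6 and +Pi_pH5 (backgrounds 0.998% and 0.0782%, with 7 and 3 at an unadjusted p under 0.05) and 1 in -Pi_pH5 (background 1.6%). Removing Pi at pH 5 (-Pi_pH5 against +Pi_pH5) called 0 of 10 in either genotype, with backgrounds of 0.0831% and 0.088%, and with 3 and 4 at an unadjusted p under 0.05. Where limma called 0 in these 7 comparisons, edgeR's likelihood ratio test and DESeq2 each called 4 in stop1 -Pi_pH6 (WRKY33, WRKY40 and WRKY46 lower, WRKY42 higher), 1 in WT -Pi_pH5 (WRKY45) and 0 in the other 5. edgeR's quasi-likelihood test called 0 in all 7. The shares of all genes called by edgeR and DESeq2 are not given, so these counts cannot be set against the limma backgrounds.

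WRKY45, the activator of PHT1;1, had 3.32 and 2.90 CPM in WT +Pi_pH6, 2.90 and 2.49 CPM in -Pi_pH6, 4.29 and 6.09 CPM in +Pi_pH5 and 7.15 and 16.1 CPM in -Pi_pH5. It thus stayed near its control level when Pi was withheld at pH 6, and both -Pi_pH5 libraries lay above every library of the other 3 media. The difference of -Pi_pH5 from the control was 1.52 ± 0.40 (adjusted p = 0.0757, limma), and edgeR's likelihood ratio test and DESeq2 did call it (adjusted p = 0.00451 and 0.00186). In stop1, -Pi_pH5 was again the highest of the 4 media: WRKY45 was at 4.64 and 11.3 CPM in -Pi_pH5 and at 2.11 to 3.57 CPM in the other 3 media. WRKY75, the promoter of Pi starvation responses, had 3.13 and 4.02 CPM in WT -Pi_pH6 and 5.12 and 11.4 CPM in WT -Pi_pH5, against 4.85 and 4.07 CPM in the control. Its difference in -Pi_pH5 was 0.68 ± 0.31 (adjusted p = 0.405). limma thus called neither gene on removal of Pi at either pH, and for WRKY45 at pH 6 the 95% interval of the difference ran from -0.997 to 0.69.

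In wild type, these 2 genes had their largest rise in ++Fe. In WT ++Fe, WRKY45 reached 44.5 and 44.8 CPM against 3.32 and 2.90 CPM in the control, a difference of 3.48 ± 0.40 (11.1-fold on the CPM + 1 scale, adjusted p = 1.18e-05). WRKY75 reached 20.1 and 22.2 CPM against 4.85 and 4.07 CPM, a difference of 2.02 ± 0.31 (4.06-fold, adjusted p = 0.000158). Both replicates of ++Fe stood far above both controls, and these 2 were the only members called in WT ++Fe (2 of 10, background 21.7% of all genes). In stop1 ++Fe, WRKY45 was at 24 and 35.9 CPM (2.83 ± 0.40, adjusted p = 9.18e-05) and WRKY75 at 14.5 and 25.8 CPM (1.63 ± 0.31, adjusted p = 0.00124). These 4 calls were kept under all 10 alternatives and with any single library left out. The genotypes did not differ detectably in ++Fe: 0 of 10 genes were called in stop1 against wild type there (background 1.21%, 3 at an unadjusted p under 0.05), and 0 of 10 in the interaction of genotype and ++Fe (background 0.0489%, 1 at an unadjusted p under 0.05); edgeR's 2 tests and DESeq2 also called 0 in both. For WRKY45 the interval of the genotype difference in ++Fe was -1.43 to 0.25, and for WRKY75 -0.76 to 0.53.

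Against -Pi_pH5, which shares its pH and differs from ++Fe in Pi as well as in Fe, 6 of 10 genes were called in wild type and all 6 were higher in ++Fe (background 24.2%). WRKY45 (1.95 ± 0.40), WRKY53 (1.35 ± 0.26) and WRKY75 (1.34 ± 0.31) had the largest differences, and WRKY33 (0.81 ± 0.29), WRKY18 (0.63 ± 0.20) and WRKY6 (0.51 ± 0.14) smaller ones. WRKY53, a regulator of senescence and defence, lay at 1.83 and 3.35 CPM in WT -Pi_pH5 and at 7.46 and 8.43 CPM in WT ++Fe, while its control libraries at 3.77 and 6.67 CPM were in between. When only the libraries compared were fitted, 2 of the 6 calls were left, and without WT -Pi_pH5 replicate 1 the calls of WRKY45 (adjusted p = 0.0527) and WRKY75 (0.0979) were lost. That of WRKY6 was lost without either WT -Pi_pH5 library or WT ++Fe replicate 1, and that of WRKY18 without WT -Pi_pH5 replicate 2 or either WT ++Fe library. WRKY33 was called in 12 of the 24 fits that left out 1 library and not without the 5 libraries with shoot markers (adjusted p = 0.0545). In stop1, 2 of 10 were called in ++Fe against -Pi_pH5 (background 10.9%), WRKY45 (1.87 ± 0.40) and WRKY75 (1.27 ± 0.31). Both were lost without stop1 -Pi_pH5 replicate 1 or without stop1 ++Fe replicate 2.

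Against the control, stop1 in ++Fe had 4 of 10 called (background 14.8%). Beside WRKY45 and WRKY75 these were WRKY42 (higher, 0.72 ± 0.21, adjusted p = 0.0279) and WRKY53 (lower, -0.81 ± 0.26, adjusted p = 0.0472). WRKY53 was at 3.40 and 5.60 CPM in stop1 ++Fe and at 7.16 CPM or more in both stop1 +Pi_pH6 libraries. With the 2 stop1 labels exchanged neither was called (WRKY42 0.10, WRKY53 -0.18), and WRKY53 was called in only 9 of the 24 fits that left out 1 library. The call of WRKY42 was lost without either stop1 +Pi_pH6 library or stop1 ++Fe replicate 2. Without the 5 libraries with shoot markers, neither of the 2 was called (adjusted p = 0.183 and 0.056).

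More of these genes were called in +Al in stop1 than in wild type, as were more of all genes. In WT +Al, 2 of 10 genes were called, WRKY45 higher and WRKY42 lower (background 8.46%). In stop1 +Al, 6 of 10 were called and all 6 were higher: WRKY45, WRKY33, WRKY75, WRKY6, WRKY42 and WRKY18 (background 37.5%). The median difference of the 10 was 0.28 in WT and 0.64 in stop1, beside 0.00 and -0.02 over all genes.

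**Figure D2:**
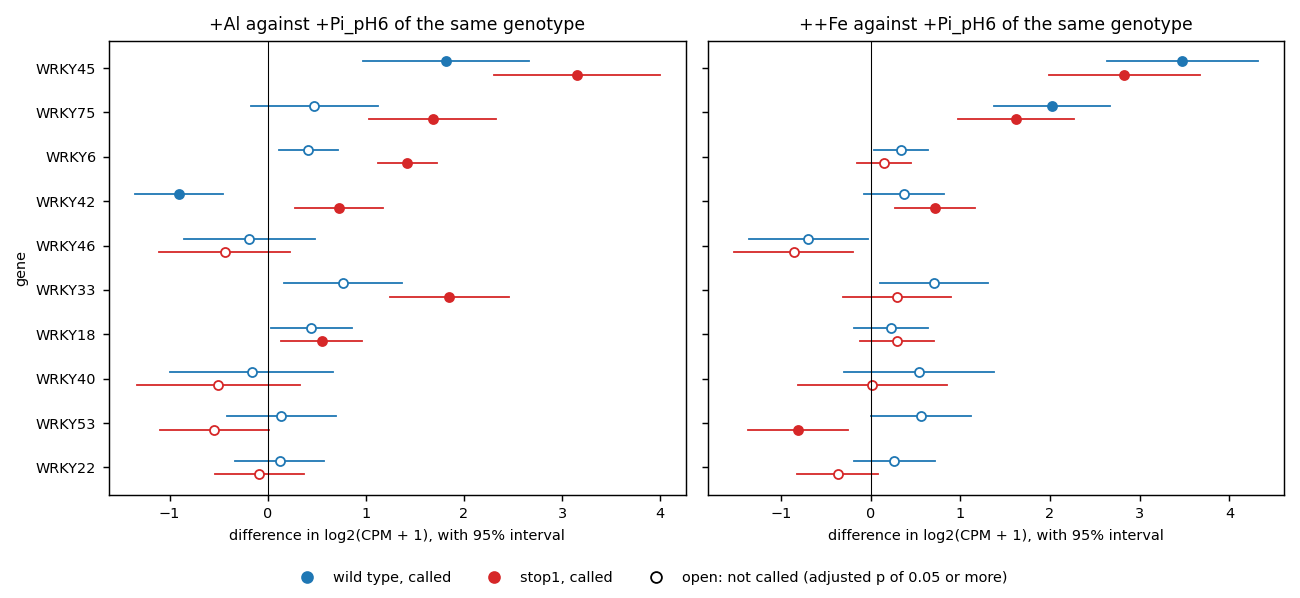
Difference in log2(CPM + 1) of each gene in +Al (left) and ++Fe (right) against +Pi_pH6 of the same genotype, for wild type (blue) and stop1 (red); lines are 95% intervals from limma and filled points are called at an adjusted p under 0.05. In +Al, WRKY42 is called in opposite directions in the genotypes (-0.90 and 0.73); in ++Fe, WRKY45 and WRKY75 stand apart in both genotypes.

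WRKY33 and WRKY6 were the most abundant of these genes and reached their highest levels in stop1 +Al. WRKY33, the activator of camalexin synthesis, had 224.9 and 172.1 CPM in stop1 +Al, against 46.2 and 62.8 CPM in stop1 +Pi_pH6 and 63.8 and 91.8 CPM in WT +Al. Both stop1 +Al libraries lay above all of the other 22. The difference from the stop1 control was 1.85 ± 0.29 (3.60-fold, adjusted p = 7.25e-05) and that from WT +Al 1.35 ± 0.29 (2.55-fold, adjusted p = 0.00237). WRKY6, a repressor of PHO1, had 156.1 and 146.6 CPM in stop1 +Al, 57.1 and 54.5 CPM in its control and 71.4 and 94.8 CPM in WT +Al. It too was above all other libraries in stop1 +Al, with differences of 1.42 ± 0.14 (2.68-fold, adjusted p = 6.92e-07) and 0.87 ± 0.14 (1.83-fold, adjusted p = 0.000261). In WT +Al neither was called (WRKY33 0.77 ± 0.29, adjusted p = 0.115; WRKY6 0.41 ± 0.14, adjusted p = 0.0866), although the 2 +Al libraries of each gene lay above both controls.

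WRKY45 and WRKY75 were also high in stop1 +Al. WRKY45 had 45.6 and 29.7 CPM there, a level that overlapped its level in ++Fe, against 3.41 and 3.13 CPM in stop1 +Pi_pH6 (3.15 ± 0.40, 8.86-fold, adjusted p = 9.45e-06). WRKY75 had 25.6 and 15.9 CPM against 5.23 and 6.00 CPM (1.68 ± 0.31, 3.21-fold, adjusted p = 0.00035). Wild type was lower for both: 8.75 and 20.5 CPM of WRKY45, and 5.63 and 7.60 CPM of WRKY75. The genotype difference in +Al was 1.39 ± 0.40 for WRKY45 (adjusted p = 0.0195) and 1.49 ± 0.31 for WRKY75 (adjusted p = 0.00189). WRKY45 was the only member called higher in WT +Al against the control (1.82 ± 0.40, adjusted p = 0.00743). Against -Pi_pH5, the same medium without Al, WRKY45 was not called (0.30 ± 0.40, interval -0.55 to 1.14), and the libraries of the 2 media overlapped. The call against the control was lost without WT +Pi_pH6 replicate 2 or without WT +Al replicate 2.

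WRKY42, a repressor of PHO1 and activator of PHT1;1, was the 1 member called lower in WT +Al, and in stop1 +Al it was called higher with 5 others. It was at 1.78 and 1.66 CPM in WT +Al, below each of the other 22 libraries, and at 4.34 and 3.87 CPM in WT +Pi_pH6 (-0.90 ± 0.21, adjusted p = 0.0112). At pH 5 without Al, WRKY42 was at 1.90 and 2.90 CPM in WT +Pi_pH5 and at 3.53 and 3.83 CPM in WT -Pi_pH5. In stop1 it had 6.10 and 4.37 CPM in +Al and 2.64 and 2.82 CPM in +Pi_pH6 (0.73 ± 0.21, adjusted p = 0.0116). The level in stop1 exceeded that of wild type in +Al by 1.18 ± 0.21 (2.27-fold, adjusted p = 0.00057). The stop1 libraries of +Pi_pH5 held 4.81 and 4.68 CPM, so with the 2 labels exchanged the stop1 calls in +Al (0.11, adjusted p = 0.746), ++Fe and -Pi_pH5 were lost, while the genotype difference in +Al does not use these libraries. Without the 5 libraries with shoot markers the difference in WT +Al was -0.87 (adjusted p = 0.18) and in stop1 +Al 0.69 (adjusted p = 0.0938). The call in WT +Al was also lost without either WT +Pi_pH6 replicate or without WT +Al replicate 2, and that in stop1 +Al without stop1 +Pi_pH6 replicate 1 or stop1 +Al replicate 1. In -Pi_pH5, WRKY42 was the 1 member called in stop1 (5.55 and 8.54 CPM, 1.08 ± 0.21, adjusted p = 0.0137). That call was lost without either stop1 +Pi_pH6 library, without stop1 -Pi_pH5 replicate 2 and without the 5 libraries with shoot markers (adjusted p = 0.17).

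WRKY18, which acts with WRKY40 as a repressor in immunity, was at 25.6 and 18.9 CPM in stop1 +Al against 13.2 and 16.5 CPM in the control (0.55 ± 0.20, adjusted p = 0.0351). In WT +Al it had 18.1 and 27.6 CPM against 15.5 and 16.9 CPM (0.44 ± 0.20, adjusted p = 0.197). In +Al the interval of the genotype difference was -0.43 to 0.39. The call in stop1 was lost without stop1 +Pi_pH6 replicate 1, without stop1 +Al replicate 1 and without the 5 libraries with shoot markers (adjusted p = 0.194).

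Between the genotypes in +Al, 5 of 10 genes were called and all 5 were higher in stop1 (WRKY75, WRKY45, WRKY33, WRKY42 and WRKY6), beside 20.1% of all genes. In the 5 other media 0 of 10 were called, with backgrounds of 0.191% (+Pi_pH6), 0.533% (-Pi_pH6), 0.406% (+Pi_pH5), 0.587% (-Pi_pH5) and the value given above for ++Fe. Those with an unadjusted p under 0.05 numbered 2, 2, 1, 1 and 3, and edgeR's 2 tests and DESeq2 called 0 in each of the 5. The interaction of genotype and +Al against +Pi_pH6 was called for 2 of 10, WRKY42 (1.63 ± 0.30, adjusted p = 0.00205) and WRKY6 (1.01 ± 0.20, adjusted p = 0.00386), beside 8.72% of all genes. For WRKY75, WRKY33 and WRKY45 it was 1.21 ± 0.43, 1.08 ± 0.40 and 1.33 ± 0.57 (adjusted p = 0.103, 0.121 and 0.185). Against -Pi_pH5 it was called for 1 of 10, WRKY75 (1.54 ± 0.43, adjusted p = 0.0415, background 6.67%), and WRKY45 had 1.89 ± 0.57 (adjusted p = 0.0548). The call of WRKY75 was kept in 12 of the 24 fits that left out 1 library. Without the 5 libraries with shoot markers, WT +Al, WT +Pi_pH6 and stop1 +Pi_pH6 had 1 library each. The interactions were then 1.56 (WRKY42) and 0.76 (WRKY6) against +Pi_pH6 and 1.35 (WRKY75) against -Pi_pH5, and their calls were lost. The genotype differences in +Al of WRKY33, WRKY75 and WRKY45 were then 1.09, 1.3 and 0.81, and these calls were lost too, while those of WRKY6 and WRKY42 were kept. Shoot content and the smaller number of libraries cannot be told apart in these losses. The genotype call of WRKY33 was lost without WT +Al replicate 1 alone (adjusted p = 0.0506), and that of WRKY45 without WT +Al replicate 1 or stop1 +Al replicate 1.

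Set against -Pi_pH5 of the same genotype, which is the +Al medium without Al, 5 of 10 genes were called in stop1 and all were higher (background 31%): WRKY45 (2.19 ± 0.40), WRKY33 (1.95 ± 0.29), WRKY75 (1.33 ± 0.31), WRKY6 (1.19 ± 0.14) and WRKY18 (0.59 ± 0.20). The call of WRKY18 was lost without either stop1 -Pi_pH5 library or without stop1 +Al replicate 1, and that of WRKY75 without stop1 -Pi_pH5 replicate 1 or stop1 +Al replicate 1. In wild type 3 of 10 were called (background 4%), WRKY18 (0.85 ± 0.20) and WRKY6 (0.59 ± 0.14) higher and WRKY42 (-0.78 ± 0.21, adjusted p = 0.0465) lower. None of these 3 was called when only the libraries compared were fitted, or without WT +Al replicate 2. WRKY6 was also lost without either WT -Pi_pH5 library and WRKY18 without replicate 2 of that medium, and WRKY42 was called in 10 of the 24 fits that left out 1 library and not without the 5 libraries with shoot markers (-0.81, adjusted p = 0.14).

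Markers of root hairs and of the differentiating endodermis moved with the stop1 +Al result. The 4 markers (RHD6, EXPA7 and COBL9 of root hairs, and CASP1 of the Casparian strip) were all detected in every library and summed to 104.4 and 99.84 CPM in stop1 +Al, against 156.0 to 279.2 CPM in the other 22 libraries. Taken apart after the values were seen, the 3 root hair genes summed to 52.05 and 57.3 CPM in stop1 +Al, against 101.3 to 195.6 CPM elsewhere, and CASP1 was at 52.4 and 42.5 CPM, against 52.8 to 114.6 CPM. The 4 meristem markers summed to 81.7 and 87.1 CPM in stop1 +Al, within the 73.8 to 107.9 CPM of all libraries. The part of this shift in the WRKY values was not tested.

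In the main limma fit of all libraries, WRKY46, WRKY40 and WRKY22 were called in no comparison. edgeR's likelihood ratio test and DESeq2 called WRKY40 lower in stop1 -Pi_pH6 (-1.59 and -1.6, adjusted p = 0.0364 and 0.0216). They also called WRKY46 lower there (-1.8 and -1.82, adjusted p = 0.0315 and 0.0407). With a replicate block, limma called both lower there (adjusted p = 0.0118 and 0.0434), and WRKY46 also in stop1 ++Fe (adjusted p = 0.046). WRKY46, the repressor of ALMT1, was at 1.53 and 2.80 CPM in WT +Pi_pH6 and at 0.892 and 2.92 CPM in WT +Al, so the +Al replicates enclosed the controls (-0.19 ± 0.31, interval -0.85 to 0.48). Its highest level was in stop1 +Pi_pH6 (3.08 and 4.51 CPM) and its lowest in WT -Pi_pH5 (0.940 and 0.776 CPM). In stop1 +Al it was at 2.57 and 2.43 CPM, 0.36 ± 0.31 from WT +Al (interval -0.30 to 1.03). Its lower values in ++Fe (-0.70 ± 0.31 in WT and -0.86 ± 0.31 in stop1) had adjusted p = 0.126 and 0.0802, and both were called without the 5 libraries with shoot markers (-0.99 and -1.08, adjusted p = 0.0224 and 0.0192). Without these libraries WRKY46 was also called lower in stop1 -Pi_pH6 (-1.42, adjusted p = 0.0375), and higher in WT +Al than in WT -Pi_pH5 (1.08, adjusted p = 0.0307), where WT +Al had only the library at 2.92 CPM. With all libraries that difference was 0.55 ± 0.31 (adjusted p = 0.433). WRKY40 had replicates as far apart as 3.40 and 10.8 CPM in WT +Al, and its values in the 24 libraries ran from 3.40 to 13.3 CPM. WRKY22, an early factor of the flagellin response, kept to 1.71 to 5.07 CPM, highest in WT ++Fe (3.48 and 5.07 CPM).

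In the order of levels over the 12 conditions, WRKY45 was highest in WT ++Fe, stop1 +Al and stop1 ++Fe, and its libraries overlapped between neighbours in that order. A gap separated these 3 conditions from WT +Al and the rest. The same 3 conditions led for WRKY75, again with overlap among them and a gap below, to WT -Pi_pH5. For WRKY33 and WRKY6 stop1 +Al stood alone at the top. WRKY45 and WRKY75 followed each other closely over the 12 condition means (Pearson r = 0.96 of log2(CPM + 1)), as did WRKY6 and WRKY33 (r = 0.97), given as a description over 12 points that share their libraries. Outside the list, the gene most like WRKY75 was GSTU5 (AT2G29450), a glutathione transferase (r = 0.98, 23.6 to 118.7 CPM in the conditions), and the one most like WRKY40 was CML23 (AT1G66400), a calmodulin-like protein (r = 0.89). For WRKY45 it was AT3G26580 (r = 0.99), for WRKY33 AT3G46930 (r = 0.98) and for WRKY6 AT4G14370 (r = 0.98). These were picked as the highest of 19384 genes.

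Among the 46 other WRKY genes, 5 (10.9%) were called in WT +Al (2 higher, 3 lower) and 15 (32.6%) in WT ++Fe (7 higher, 8 lower), beside 8.46% and 21.7% of all genes. WRKY31, of the same subgroup as WRKY6 and WRKY42, rose in both: 19.0 and 14.3 CPM in the control, 28.9 and 45.8 CPM in +Al (1.099 ± 0.21, adjusted p = 0.00229) and 55.7 and 41.7 CPM in ++Fe (1.49 ± 0.21, adjusted p = 6.9e-05). WRKY2 also rose in +Al (0.60 ± 0.16), and WRKY29 (0.96 ± 0.18) and WRKY14 (0.64 ± 0.14) in ++Fe. WRKY54, a negative regulator of senescence, fell in both, from 8.82 and 14.7 CPM to 2.73 and 1.48 CPM in +Al (-2.03 ± 0.28, adjusted p = 0.000158) and to 1.44 and 2.46 CPM in ++Fe (-2.09 ± 0.28, adjusted p = 5e-05). WRKY62 fell in both (-2.42 ± 0.43 and -2.14 ± 0.43), WRKY59 in +Al (-1.15 ± 0.30) and WRKY74 in ++Fe (-1.75 ± 0.30). The control libraries were far apart for WRKY62 (4.13 and 10.94 CPM) and for WRKY59 (0.612 and 3.205 CPM, against 0.167 and 0.180 CPM in +Al). Of these 4, WRKY54 (1.65 and 1.94 CPM, -2.15 ± 0.28), WRKY62 (0.752 and 1.36 CPM, -1.95 ± 0.43) and WRKY59 (-1.22 ± 0.30) were also called lower in WT -Pi_pH5, which has neither Al nor the added Fe. In WT -Pi_pH5 against the control, 7 of the 46 were called, all lower (15.2%, beside 1.44% of all genes). Against -Pi_pH5, 0 of the 46 were called lower in WT +Al and 3 higher (6.52%, beside 4% of all genes). In WT ++Fe against -Pi_pH5, WRKY74 (-1.66 ± 0.30) was lower and WRKY31 (1.08 ± 0.21) higher. WRKY50 was at 0.63 ± 0.22 in +Al (adjusted p = 0.0968). In stop1 against wild type in +Al, 22 of the 46 were called (47.8%, 12 higher and 10 lower), beside 20.1% of all genes. WRKY55 (9.73 and 5.19 CPM against 0.279 and 0.495 CPM), WRKY28 (11.8 and 8.25 CPM against 1.12 and 2.47 CPM) and WRKY24 (30.8 and 26.7 CPM against 9.37 and 6.93 CPM) were higher in stop1. WRKY38 (0.964 and 1.36 CPM against 11.3 and 9.53 CPM), WRKY7 (24.3 and 24.6 CPM against 45.8 and 39.0 CPM) and WRKY69 (16.8 and 14.0 CPM against 30.9 and 26.5 CPM) were lower.

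**Figure D3:**
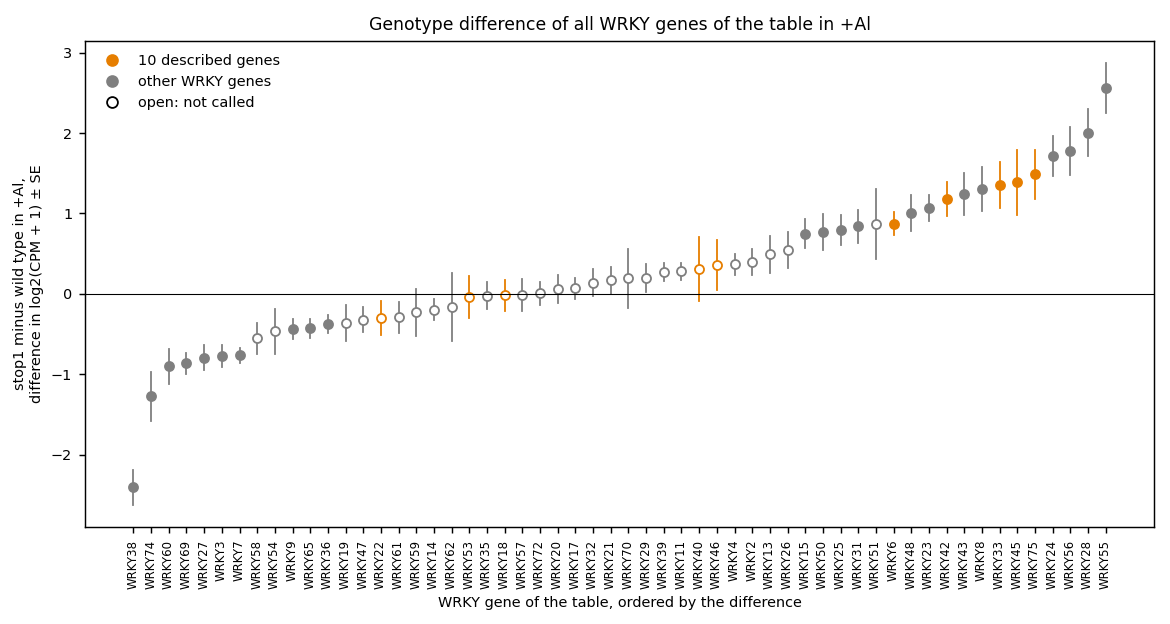
Difference between stop1 and wild type in +Al, in log2(CPM + 1) ± SE, for the 56 WRKY genes of the table ordered by size; orange points are the 10 genes described and filled points are called. The 5 called members lie between 0.87 (WRKY6) and 1.49 (WRKY75), within the upper part of the family, and WRKY38 (-2.40) and WRKY55 (2.56) mark its ends.

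The known targets of these factors were examined next, as levels of their own. PHO1, the target of WRKY6 and WRKY42, had 465.5 and 667.1 CPM in WT +Pi_pH6 and 156.0 and 180.4 CPM in WT ++Fe (-1.73 ± 0.24, adjusted p = 5.66e-05), and 177.1 and 206.0 CPM in stop1 ++Fe against 387.4 and 458.7 CPM (-1.14 ± 0.24, adjusted p = 0.00264). It was thus low in ++Fe in both genotypes, and it was not called in +Al, where its stop1 libraries held 335.6 and 386.7 CPM. PHT1;1, a Pi transporter and target of WRKY45 and WRKY42, rose in -Pi_pH6 (1.25 ± 0.17 in WT and 1.41 ± 0.17 in stop1). The call in WT was lost without the 5 libraries with shoot markers (1.15, adjusted p = 0.101) and with only the libraries compared (adjusted p = 0.658). In stop1 it fell to 190.5 and 153.1 CPM in +Al and to 189.3 and 150.6 CPM in ++Fe, from 383.1 and 390.4 CPM (-1.17 ± 0.17 and -1.19 ± 0.17), while WT +Al had 517.9 and 565.9 CPM. These 2 conditions had the lowest PHT1;1 of the 12, and both were among the 3 highest for WRKY45. In WT ++Fe, the highest of the 3 for WRKY45, PHT1;1 was at 296.2 and 375.1 CPM against 358.1 and 416.6 CPM in the control, and it was not called. Of the 50-base stretches of PHT1;1, 42.5% occur elsewhere in the genome, so its reads may have been split with a near copy. PHT1;4, another Pi transporter, rose in -Pi_pH6 (2.30 ± 0.21 in WT, 1.97 ± 0.21 in stop1), in -Pi_pH5 (1.498 ± 0.21 and 1.57 ± 0.21) and in +Al (2.00 ± 0.21 and 1.81 ± 0.21). It was also called higher in WT ++Fe (90.9 and 59.4 CPM against 42.9 and 35.2 CPM, 0.90, limma adjusted p = 0.00488), but not in stop1 ++Fe. The WT ++Fe call was lost with only the libraries compared, and without WT +Pi_pH6 replicate 2 or WT ++Fe replicate 1.

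ALMT1, the target of WRKY46, was at 242.6 and 187.4 CPM in WT +Al and at 5.92 and 3.36 CPM in the control (5.29 ± 0.21, adjusted p = 7.38e-11), and at 0.0459 and 0 CPM (1 and 0 reads) in stop1 +Al. WRKY46 had no called change in that comparison. The camalexin gene CYP71A13, a target of WRKY33, was at 0.051 and 0 CPM in WT +Pi_pH6 and rose to 5.91 and 10.07 CPM in WT +Al, 45.6 and 10.6 CPM in WT ++Fe, 39.5 and 21.0 CPM in stop1 +Al and 10.7 and 17.4 CPM in stop1 ++Fe, all 4 called. PAD3, which encodes the last enzyme of camalexin synthesis, rose in stop1 +Al: 214.5 and 160.5 CPM against 42.9 and 49.6 CPM in its control (1.98 ± 0.33, adjusted p = 0.000163). In WT ++Fe it was lower (47.6 and 15.3 CPM against 54.5 and 64.2 CPM, -1.10 ± 0.33, adjusted p = 0.0264), in replicates far apart and not called without the 5 libraries with shoot markers (adjusted p = 0.109). The ethylene synthesis genes ACS2 (11.1 and 11.2 CPM against 2.37 and 3.282 CPM, 1.68 ± 0.31) and ACS6 (53.3 and 45.9 CPM against 20.1 and 25.6 CPM, 1.09 ± 0.13) and the flagellin-responsive kinase gene FRK1 (3.53 and 3.06 CPM against 0.441 and 0.154 CPM, 1.73 ± 0.20) also rose in stop1 +Al. ACS2 and ACS6 were called in no comparison between wild-type media, and FRK1 rose in WT ++Fe (1.17 ± 0.20).

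**Figure D4:**
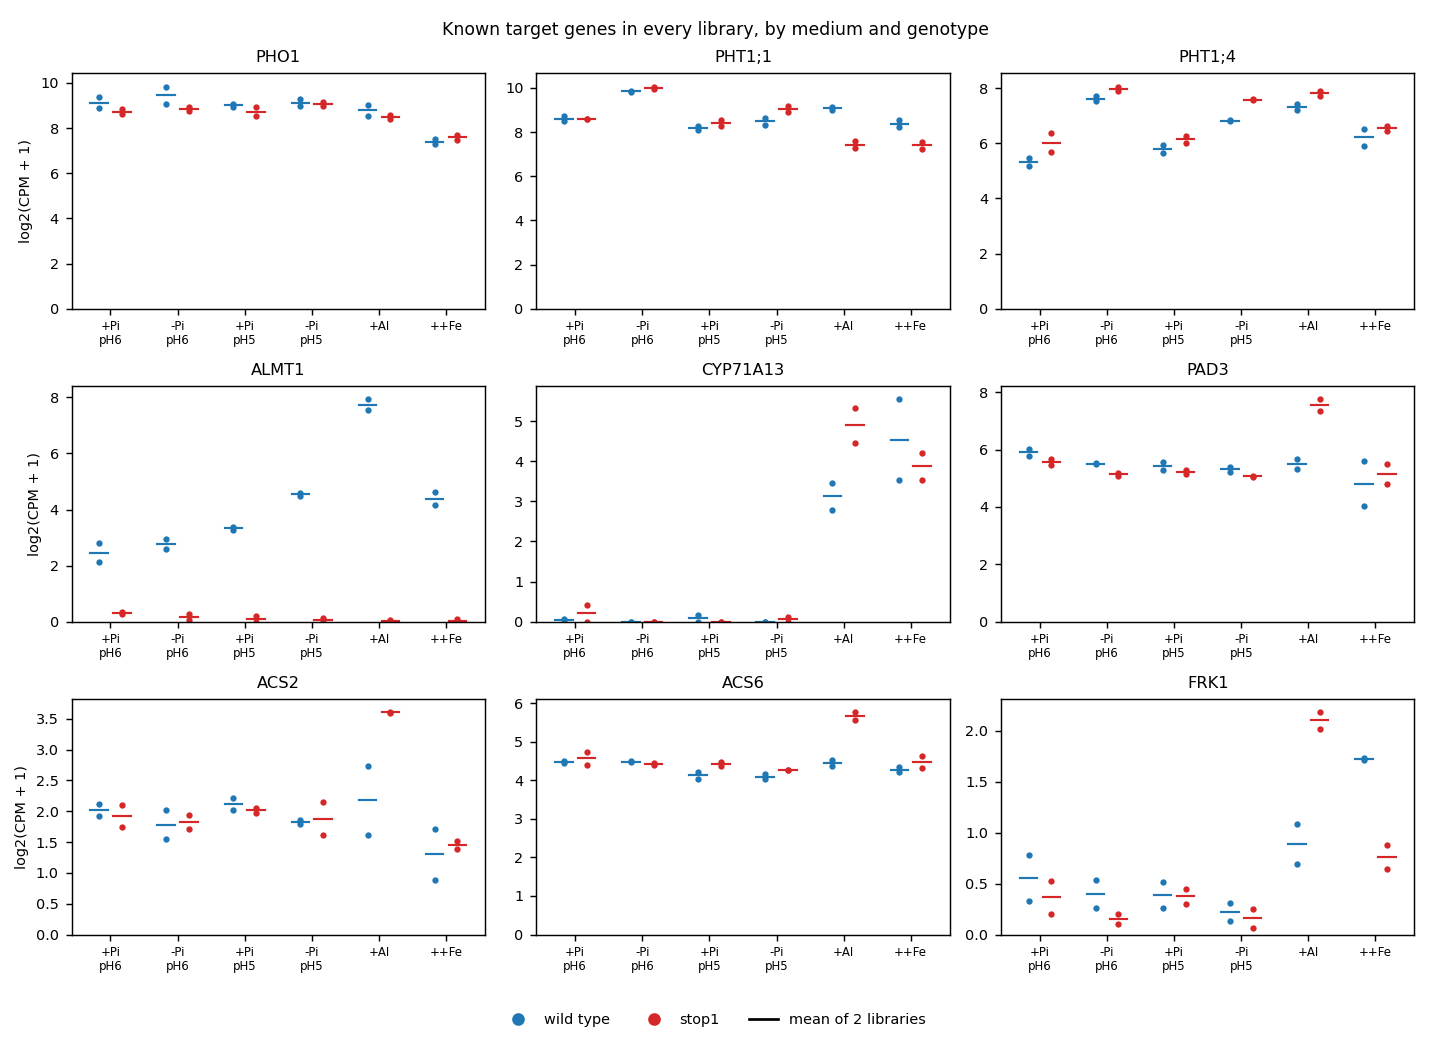
Level of 9 target genes in log2(CPM + 1) (own scale for each gene, axis from 0) in the 6 media for wild type (blue) and stop1 (red); points are libraries and short lines are means of 2. ALMT1 is highest in wild type in +Al (242.6 and 187.4 CPM), PHO1 is lowest in ++Fe, PHT1;1 is low in stop1 in +Al and ++Fe, and PAD3, ACS2, ACS6 and FRK1 are highest in stop1 in +Al.

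Of 12 kinases and partners of WRKY factors, 1 was called in WT +Al, 2 in WT ++Fe and 4 in stop1 +Al (3 higher, 1 lower). These shares, 8.33%, 16.7% and 33.3%, stand beside 8.46%, 21.7% and 37.5% of all genes. SIB2, which binds WRKY33, fell in both, from 5.05 and 6.92 CPM to 1.84 and 2.43 CPM in +Al (-1.15 ± 0.25) and to 1.07 and 2.84 CPM in ++Fe (-1.30 ± 0.25). The kinase gene MKK9 rose in ++Fe (0.71 ± 0.20, adjusted p = 0.0206), whereas MKS1 (0.68 ± 0.25) and MKK2 (-0.23 ± 0.09) did not pass the test, nor did SIB1 (0.42 ± 0.22), MEKK1 (0.27 ± 0.15) and MKK2 (-0.16 ± 0.09) in +Al. Of 7 early defence reporters, 3 were called in WT +Al and 4 in stop1 +Al, all higher, and 5 higher and 1 lower in WT ++Fe (42.9%, 57.1% and 85.7%, beside the same backgrounds of 8.46%, 37.5% and 21.7%). NHL10 went from 1.79 and 1.02 CPM to 21.5 and 42.3 CPM in +Al and 194.3 and 102.3 CPM in ++Fe (5.91 ± 0.41), and CYP81F2, an indole glucosinolate enzyme, from 4.23 and 7.33 CPM to 13.8 and 16.7 CPM and to 125.8 and 73.8 CPM (3.88 ± 0.28). RBOHD, the NADPH oxidase of the immune burst, was the 1 lower (-1.01 ± 0.22 in ++Fe; -0.55 ± 0.22, adjusted p = 0.137, in +Al), and PROPEP3 was at -0.11 ± 0.27 in +Al. Of 8 salicylic acid genes 4 were in the table. In WT +Al, PAD4 (-0.56 ± 0.19, adjusted p = 0.085) and EDS1 (-0.15 ± 0.13) did not pass the test, while PAD4 (-1.23 ± 0.19) and ICS1 (-0.66 ± 0.17), the salicylic acid synthase gene, fell in WT ++Fe and EDS1 was at 0.03 ± 0.13.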

How the data were processed

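Deposited per-gene signal values of 24 root RNA-seq libraries (12 conditions of 2) were used. The authors aligned the reads to TAIR10 with HISAT2 2.1.0, counted them with HTSeq 0.11.2 and scaled the counts with edgeR 3.28.0, so the deposited signal is TMM-scaled CPM. The strand setting of the counting and the gene filter are not given in the sources used here, and each gene exceeded 1 CPM in at least 2 libraries. Dividing by the worth of 1 read gave whole numbers for 100% of the values (within 0.001 of a read). Groups and replicate numbers came from the labels. The methods of the study call the 2 libraries of a condition independent biological replicates. The 10 genes and all gene lists were chosen with earlier results of these data known.

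log2(CPM + 1) values were compared with limma 3.58.1 (R 4.3.3), with 12 coefficients and a trend of the variance with the mean, p-values were adjusted by Benjamini-Hochberg over 20450 genes, and genes were called at an adjusted p under 0.05. The 25 comparisons were each medium against +Pi_pH6 within a genotype, stop1 against wild type in each medium, 3 pairs of low-pH media per genotype and 3 interactions. As a count test could not be the main test for scaled values, it was run on the recovered reads as an alternative: edgeR 4.0.16 (likelihood ratio and quasi-likelihood) and DESeq2 1.42.0. On simulated data for WT +Al against +Pi_pH6 (20450 genes, 200 of them changed), limma recovered 71% of 2-fold and 99% of 4-fold changes with 11 false calls. The simulation gave all genes 1 common dispersion (spread between replicates) and changed only genes with a mean of at least 1 CPM. Real genes differ in spread, so these rates need not hold for each gene, least of all for those with few reads. Other alternatives were library size alone, a pseudocount of 0.1, a mean CPM of at least 1, only the libraries compared, a replicate block, exchanged stop1 +Pi_pH6 and +Pi_pH5 labels, and leaving out each library. Leaving out the 5 libraries with more than 100 CPM of shoot markers was added after the data had been seen.

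All 10 genes are named. Beside them, 9 targets are given with values. Of the kinases, defence reporters and salicylic acid genes the 2 with the smallest p in each direction in WT +Al and WT ++Fe are named, and of the other WRKY genes the 3 with the smallest p in each direction in these comparisons and in stop1 against wild type in +Al. The gene most like each of the 10 was sought by Pearson r over 12 condition means among genes with a mean of at least 1 CPM. Promoters and gene models were read from TAIR10.1. Python 3.11.15, numpy 2.4.6, pandas 2.3.3 and matplotlib 3.10.9 were used for tables and figures.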

Additional observations from a re-analysis of the deposited data

Results flagged for a closer look

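The response to +Al differed between the genotypes, in a test of the difference itself, for 2 of the 10 genes against +Pi_pH6 (8.72% of all genes) and for 1 against -Pi_pH5 (6.67%). Against +Pi_pH6, the response of WRKY42 was 1.63 ± 0.30 (log2 scale, limma adjusted p = 0.00205) higher in stop1 than in wild type, with both wild-type +Al libraries below and both stop1 +Al libraries above their own controls. Its stop1 +Al libraries (6.10 and 4.37 CPM) overlapped those of stop1 -Pi_pH5 (5.55 and 8.54 CPM), and its interaction against -Pi_pH5 was not called. With the stop1 labels exchanged, its stop1 control would hold 4.81 and 4.68 CPM, between the stop1 +Al libraries. Against +Pi_pH6, the response of WRKY6 was 1.01 ± 0.20 higher in stop1 (adjusted p = 0.00386), and the +Al libraries of both genotypes lay above their controls. The interaction of WRKY6 against -Pi_pH5, the +Al medium without Al, was not called. Against -Pi_pH5, the response of WRKY75 was 1.54 ± 0.43 higher in stop1 (adjusted p = 0.0415). None of the 3 was called without the 5 libraries with shoot markers (WRKY42 1.56, WRKY6 0.76, WRKY75 1.35). That fit had 1 library each for WT +Al and for the +Pi_pH6 control of both genotypes. With 2 libraries per condition, no test for a deviating sample was made.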

How the results depend on the processing

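No called direction was reversed under any alternative. Of the 39 called results, 19 were kept under all 10 alternatives, 17 with each library left out and 14 under both. Calls lost numbered 14 without the 5 libraries with shoot markers, 13 with only the libraries compared, 4 with the exchanged labels, 2 each with edgeR's quasi-likelihood test and library size alone, and 1 with the pseudocount of 0.1. edgeR's likelihood ratio test, DESeq2, the filter on mean CPM and the replicate block lost 0. The causes were not tested.

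The larger moves in the counts of the 10 genes called are given here and for the replicate block below, and smaller shifts are left out. The shares of all genes called under these alternatives are not given. edgeR's likelihood ratio test called 1 in WT -Pi_pH5 and 4, 2 in stop1 -Pi_pH6 and -Pi_pH5 against +Pi_pH6, and 2 in the interaction with +Al against -Pi_pH5. DESeq2 gave the same 1, 4, 2 and 2, and 5 in WT +Al against -Pi_pH5. With only the libraries compared, the counts were 0 in WT +Al, 3 in stop1 -Pi_pH6, 0 in stop1 -Pi_pH5, 0 in WT +Al and 2 in WT ++Fe against -Pi_pH5, and 0 in the interaction against -Pi_pH5. With the labels exchanged, stop1 had 0 in -Pi_pH5 and 2 in ++Fe against +Pi_pH6, and 1 in -Pi_pH5 against +Pi_pH5. Without the 5 libraries with shoot markers, counts were 1 in WT +Al, 1 in stop1 -Pi_pH6, 0 in stop1 -Pi_pH5, 2 between the genotypes in +Al and 0 in both interactions with +Al.

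The labels give equal replicate numbers in all conditions but no shared batch. The difference of replicate 2 from replicate 1, gene by gene, was therefore correlated between conditions. Over 66 pairs of conditions, r ran from -0.384 to 0.503 (median 0.119). Positive r over 0.1 was found in 37 pairs, and negative r beyond the same size in 9. For the genes described here, replicate 2 was higher in 4 (WRKY6) to 11 (WRKY40) of 12 conditions. Whether libraries of equal number share a batch was not tested. The main fit had no replicate term, and the block was run as an alternative. The replicate block called 1 in WT -Pi_pH5, 2 in stop1 -Pi_pH6 and 2 in stop1 -Pi_pH5 against +Pi_pH6, and 2 in the interaction with +Al against -Pi_pH5.

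Leaving out each library in turn gave ranges of 0 to 1 (WT -Pi_pH5), 0 to 4 (WT +Al), 2 to 3 (WT ++Fe), 0 to 2 (stop1 -Pi_pH6 and -Pi_pH5), 4 to 6 (stop1 +Al) and 2 to 5 (stop1 ++Fe) against +Pi_pH6. They were 3 to 5 between the genotypes in +Al. Against -Pi_pH5 they were 0 to 3 (WT +Al), 2 to 6 (WT ++Fe), 3 to 5 (stop1 +Al) and 0 to 2 (stop1 ++Fe). For the interactions with +Al they were 2 to 3 against +Pi_pH6 and 0 to 3 against -Pi_pH5, and 0 in the other comparisons. A library left out leaves its condition with 1 sample, which is assumed to vary like the rest. A gene at WRKY46's depth (15 to 88 reads) carries more counting error than WRKY33 (552 to 4900 reads).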
